A study of Mus musculus with 9 samples.

Results

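Endothelial cells line the blood vessels and chambers of the heart, and 10 genes used as their markers (*Pecam1*, *Cdh5*, *Esam*, *Emcn*, *Kdr*, *Flt1*, *Tek*, *Tie1*, *Vwf* and *Egfl7*) were examined in neonatal rat ventricular cardiomyocytes (NRVMs) overexpressing LacZ, Nrf1 or Nrf2. The genes were taken by symbol, and all 10 were found in each of the 3 tables deposited by the authors. These hold 14819 genes (the pair of LacZ and Nrf1), 14986 genes (LacZ and Nrf2) and 14908 genes (the pair of both factors). The study asked how these related stress-responsive transcription factors change the transcriptome of cardiomyocytes. NRVMs were prepared with a commercial kit from Sprague-Dawley rats 1 or 2 days old, plated for 48 h and then given adenovirus at a multiplicity of infection of 50, and RNA was collected 48 h after infection. The control cells received Adeno-LacZ, which carries bacterial beta-galactosidase, and the other groups received Adeno-Nrf1 or Adeno-Nrf2, which carry the mouse coding regions. All viruses used a CMV promoter, which is not restricted to cardiomyocytes, and a vector that also encodes a red fluorescent protein. The labels name the mouse as the organism, whereas the cells were from rats and the reads were aligned to the rat genome. A primary culture of this kind can hold cells other than cardiomyocytes, and the sources used here describe no sort.

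Each group had 3 libraries. Nothing in the labels says that the libraries of a group came from separate isolations, so p-values measure the spread between these libraries, which may be technical. The deposited values are group means, but the whole read counts of the single libraries behind them could be solved exactly. The libraries held 9347199, 8217662 and 7874461 reads in genes with LacZ, 10360878, 10109496 and 8602228 with Nrf1, and 11962911, 11358078 and 10199908 with Nrf2. Libraries are given from the deepest to the shallowest within a group, and this order cannot be tied to the replicate numbers in the labels. A level is a normalized read count, the reads of a gene divided by the library's size factor relative to all 9 libraries. The members were covered by between 14 reads (*Emcn* in 1 Nrf2 library) and 720 reads (*Flt1* in 1 LacZ library), and each member passed the filter of a mean of at least 10 in every group. Differences between 2 groups are on the scale of log2(normalized count + 0.5), with the standard error (SE), the 95% confidence interval (CI) and an adjusted p from limma, Benjamini-Hochberg adjusted over all genes tested. A gene was called at an adjusted p under 0.05, whereas the CI is not adjusted for the number of genes. Levels are not per transcript length, so they are compared between groups and not between genes.

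No library stood out as a repeat of another. Within groups the counts of 2 libraries differed with a chi-square of 1.47 to 5.11 per gene, where counting error alone gives about 1, and between groups with 31.8 to 61.1. *Nfe2l2*, which encodes Nrf2, was at 3472, 3399 and 3493 in the LacZ libraries, 2815, 2894 and 2869 in the Nrf1 libraries and 78772, 77443 and 67554 in the Nrf2 libraries. The Nrf2 libraries thus match their label, although reads of the transgene cannot be told apart from those of the cells' own gene. The gene that encodes Nrf1 was not analysed here, so the labels of the Nrf1 libraries were not checked in this way.

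The endothelium forms a sheet in which adjacent cells are held together by adhesion molecules at their junctions. Its growth and survival depend on receptor tyrosine kinases, chiefly the receptors for vascular endothelial growth factors (VEGF) and the Tie receptors for angiopoietins. Endothelial cells also secrete proteins that act in clotting and in vessel growth, and in the heart they lie close to cardiomyocytes and exchange paracrine signals with them.

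Most of the endothelial markers were lower in cells with either factor than in LacZ cells, and *Egfl7* was higher. The mean level of *Flt1*, for example, was 736 ± 38.4 (SD, n = 3) in LacZ cells, 376 ± 14.7 in Nrf1 cells and 412 ± 27.5 in Nrf2 cells. In Nrf1 cells 8 of the 10 were called lower than in LacZ cells, 1 was called higher and 1 was not called, where 32.5% of the 11433 genes tested were called lower and 34.3% higher. In Nrf2 cells 7 of the 10 were called lower than in LacZ cells, 1 higher and 2 were not called, where 26.0% of the 11609 genes tested were called lower and 28.6% higher. The median log2 difference of the members was -0.91 with Nrf1 and -0.82 with Nrf2, and that of all genes tested was 0.00 in either comparison. The comparisons with LacZ share the same 3 LacZ libraries and are not independent of each other. Past a fold of 1.5 as well, 7 members were lower with Nrf1 and none was higher, where 17.0% of all genes tested were lower and 11.4% higher. With Nrf2 6 members were lower and 1 was higher past that fold, where 9.66% of all genes tested were lower and 9.25% higher. In RNA from a whole culture, fewer endothelial cells and less of these transcripts per endothelial cell cannot be told apart.

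Summed over the 10 members, the level was 2229, 2335 and 2253 in the LacZ libraries, 1547, 1467 and 1537 in the Nrf1 libraries and 1601, 1438 and 1724 in the Nrf2 libraries. Each library with Nrf1 or Nrf2 lay below each LacZ library, and the Nrf1 libraries lay within the range of the Nrf2 libraries. The group means of this sum were 66.8% of the LacZ mean with Nrf1 and 69.9% with Nrf2, with *Flt1* giving 32.4% of the sum in LacZ cells, 24.8% in Nrf1 cells and 26.0% in Nrf2 cells. Without *Flt1* the sum was 74.3% of the LacZ mean with Nrf1 and 76.5% with Nrf2. In the sum of all 10 members the Nrf2 libraries differed most among themselves. The second of them by depth was the lowest of the 3 for 7 members, and the third by depth was the highest of the 3 for 7 members.

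**Figure D1:**
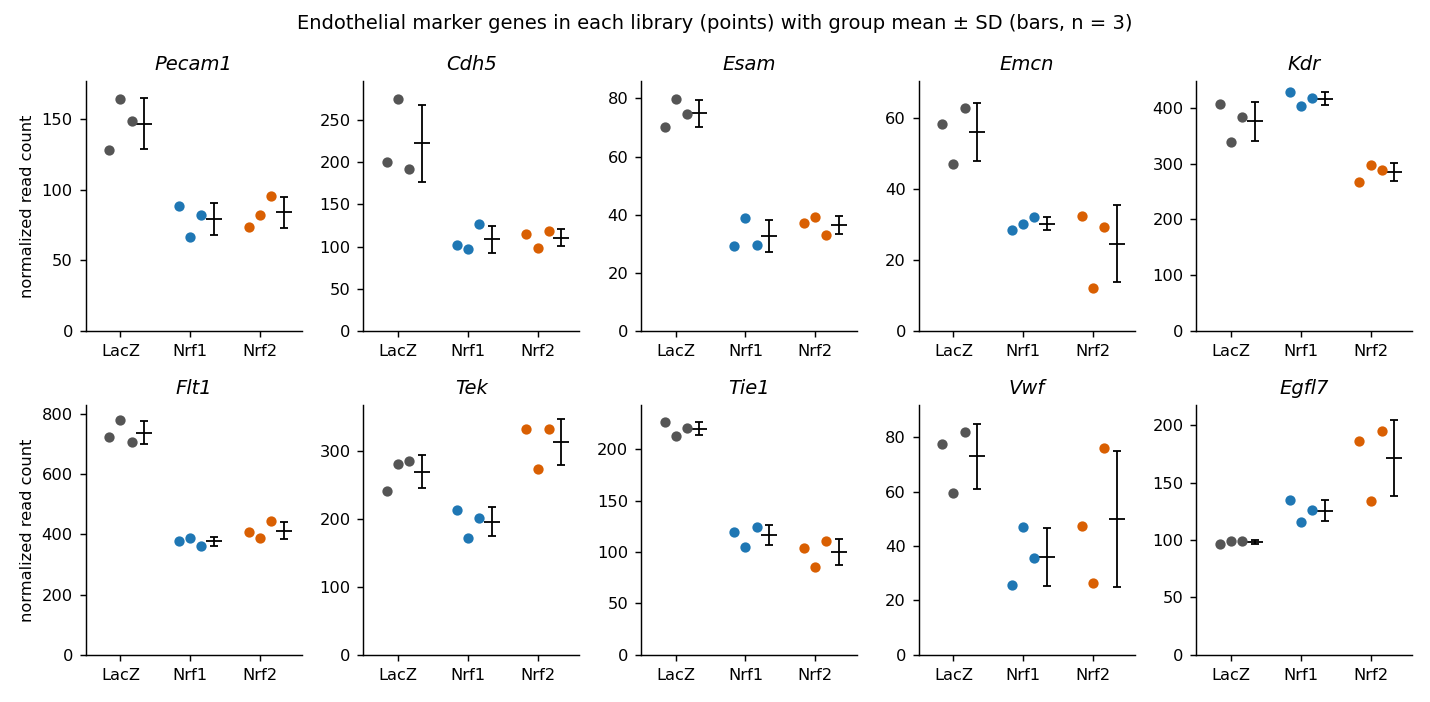
Level (normalized read count, linear axis from 0) of each endothelial marker gene in each library, with points for libraries and bars for the group mean ± SD (n = 3). For *Flt1* the LacZ libraries sit between 705 and 779 and all libraries with Nrf1 or Nrf2 between 360.2 and 442, whereas *Egfl7* is lowest in LacZ libraries, between 96.5 and 99.6.

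Among the genes of cell adhesion, *Cdh5* encodes VE-cadherin, the cadherin of endothelial junctions. Its level was 200.0, 274 and 192 in the LacZ libraries, 101, 97.5 and 127 in the Nrf1 libraries and 114, 98.9 and 119 in the Nrf2 libraries. All libraries with a factor were below all LacZ libraries, and the second LacZ library by depth was well above the others. The log2 difference from LacZ was -1.02 ± 0.14 (SE, 95% CI -1.32 to -0.73, adjusted p = 8.81e-06) with Nrf1. With Nrf2 it was -0.99 ± 0.13 (SE, 95% CI -1.27 to -0.70, adjusted p = 2.30e-05). *Pecam1*, which encodes the adhesion molecule CD31 of endothelial cells, platelets and some leukocytes, was at 128, 164 and 148 in LacZ cells, 88.1, 66.3 and 82.3 in Nrf1 cells and 73.7, 82.2 and 95.5 in Nrf2 cells. Again no library with a factor reached the lowest LacZ library. *Pecam1* had a log2 difference from LacZ of -0.89 ± 0.14 (SE, 95% CI -1.19 to -0.60, adjusted p = 3.41e-05) with Nrf1 and -0.80 ± 0.13 (SE, 95% CI -1.09 to -0.52, adjusted p = 1.51e-04) with Nrf2.

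*Esam*, an immunoglobulin-like molecule of endothelial tight junctions that platelets also carry, had levels of 70.4, 79.7 and 74.7 in LacZ libraries, 29.4, 39.0 and 29.7 in Nrf1 libraries and 37.3, 39.4 and 33.1 in Nrf2 libraries. The gap between the LacZ libraries and the rest was wider than the spread within any group. Its log2 difference from LacZ was -1.20 ± 0.18 (SE, 95% CI -1.57 to -0.82, adjusted p = 2.17e-05) with Nrf1, the lowest value of the 10 members in that comparison, and -1.02 ± 0.16 (SE, 95% CI -1.36 to -0.69, adjusted p = 7.65e-05) with Nrf2. *Emcn* encodes endomucin, a sialoglycoprotein of venous and capillary endothelium, and was among the members with the fewest reads. Its level was 58.3, 47.1 and 62.8 in LacZ cells, 28.4, 30.2 and 32.0 in Nrf1 cells and 32.3, 12.2 and 29.2 in Nrf2 cells. The Nrf1 libraries were tightly grouped, whereas the second Nrf2 library by depth was far below the others. *Emcn* had a log2 difference from LacZ of -0.87 ± 0.19 (SE, 95% CI -1.27 to -0.47, adjusted p = 7.37e-04) with Nrf1 and -1.28 ± 0.30 (SE, 95% CI -1.92 to -0.63, adjusted p = 0.00253) with Nrf2. Without the low Nrf2 library the difference with Nrf2 was -0.85 (adjusted p = 0.00463), and over all alternatives tried its adjusted p ran from 7.63e-04 to 0.0146.

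Of the VEGF receptors, *Flt1* was called lower with either factor and *Kdr* with Nrf2 alone. *Flt1* encodes VEGFR1, which binds VEGF-A tightly and signals weakly, and which in a soluble form holds the ligand back. It was at 724, 779 and 705 in the LacZ libraries, 379, 389 and 360.2 in the Nrf1 libraries and 406, 388 and 442 in the Nrf2 libraries, a separation several times the spread within a group. The log2 difference of *Flt1* from LacZ was -0.97 ± 0.06 (SE, 95% CI -1.10 to -0.84, adjusted p = 1.13e-09) with Nrf1. With Nrf2 it was -0.84 ± 0.06 (SE, 95% CI -0.97 to -0.70, adjusted p = 8.14e-08). *Kdr* encodes VEGFR2, the main signalling receptor for VEGF-A, and its level was 407, 338 and 383 in LacZ libraries, 428, 404 and 417 in Nrf1 libraries and 267, 297 and 289 in Nrf2 libraries. The Nrf1 libraries overlapped with the LacZ libraries at their upper end, and the Nrf2 libraries lay below both groups. *Kdr* was not called with Nrf1, with a log2 difference of 0.15 ± 0.07 (SE, 95% CI -0.01 to 0.30, adjusted p = 0.085), and was called lower with Nrf2, with -0.40 ± 0.08 (SE, 95% CI -0.57 to -0.23, adjusted p = 7.33e-04). Without the deepest LacZ library *Kdr* was called higher with Nrf1 (0.21, adjusted p = 0.0246), and over all alternatives tried the adjusted p of *Kdr* with Nrf1 ran from 0.0246 to 0.351.

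Of the Tie receptors, *Tie1* was called lower with either factor and *Tek* with Nrf1 alone. *Tie1*, an orphan receptor that modulates Tie2, had levels of 226, 213 and 220.5 in LacZ cells, 119, 105 and 125 in Nrf1 cells and 104, 85.7 and 111 in Nrf2 cells. All LacZ libraries were far above all others. The log2 difference of *Tie1* was -0.92 ± 0.10 (SE, 95% CI -1.13 to -0.71, adjusted p = 7.16e-07) with Nrf1 and -1.14 ± 0.11 (SE, 95% CI -1.37 to -0.90, adjusted p = 9.04e-07) with Nrf2. *Tek* encodes Tie2, the receptor of the angiopoietins, and was at 242, 282 and 286 in LacZ cells, 214, 173 and 202 in Nrf1 cells and 333, 274 and 333 in Nrf2 cells. The Nrf1 libraries were below all LacZ libraries, while 1 Nrf2 library fell within the LacZ range and the others lay above it. *Tek* was called lower with Nrf1, short of a fold of 1.5, with a log2 difference of -0.46 ± 0.10 (SE, 95% CI -0.67 to -0.25, adjusted p = 6.52e-04). With Nrf2 it was not called, with a log2 difference of 0.21 ± 0.09 (SE, 95% CI 0.01 to 0.41, adjusted p = 0.0662). That comparison turned on 1 library, since without the second Nrf2 library by depth *Tek* was called higher (0.31, adjusted p = 0.0144), and over all alternatives tried its adjusted p ran from 0.0144 to 0.237.

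With Nrf1 the genes of the secreted proteins changed in opposite directions. *Vwf* encodes von Willebrand factor, which endothelial cells and megakaryocytes store and which carries platelets to injured vessel walls. Its level was 77.4, 59.5 and 81.8 in the LacZ libraries, 25.6, 46.8 and 35.4 in the Nrf1 libraries and 47.2, 26.2 and 76.0 in the Nrf2 libraries. The Nrf1 libraries were all below the LacZ libraries, whereas the Nrf2 libraries ranged from close to the lowest Nrf1 value to within the LacZ range. In Nrf2 cells the coefficient of variation of *Vwf* was 50.1%, where counting error alone gives 13.5% at this depth. *Vwf* was called lower with Nrf1, with a log2 difference of -1.04 ± 0.22 (SE, 95% CI -1.50 to -0.58, adjusted p = 5.57e-04). It was not called with Nrf2, with -0.66 ± 0.29 (SE, 95% CI -1.27 to -0.04, adjusted p = 0.066). Without the third Nrf2 library by depth *Vwf* was called lower with Nrf2 (-1.02, adjusted p = 0.00483), as it was without the second LacZ library by depth (-0.80, adjusted p = 0.0449), whereas without the second Nrf2 library by depth the difference was -0.27 (adjusted p = 0.337). Over all alternatives its adjusted p ran from 0.00483 to 0.337.

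*Egfl7*, which encodes a protein that endothelial cells secrete into the matrix around growing vessels and which is the host gene of miR-126, was called higher in all 3 comparisons, as no other member was. Its level was 96.5, 98.8 and 99.6 in the LacZ libraries, 134, 116 and 126 in the Nrf1 libraries and 186, 134 and 195 in the Nrf2 libraries. The LacZ libraries were closely grouped and below all libraries with a factor, and the lowest Nrf2 library was level with the highest Nrf1 library. The log2 difference of *Egfl7* from LacZ was 0.35 ± 0.11 (SE, 95% CI 0.11 to 0.59, adjusted p = 0.0136) with Nrf1 and 0.78 ± 0.13 (SE, 95% CI 0.50 to 1.07, adjusted p = 2.02e-04) with Nrf2. The call with Nrf1 was lost without the deepest Nrf1 library (0.29, adjusted p = 0.0631), and its adjusted p ran from 0.0141 to 0.0631 over all alternatives.

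Counted by library, all 3 Nrf1 libraries were below all 3 LacZ libraries for 8 of the 10 members, as they were for 34.3% of all genes tested, and above them for 1, as for 36.3%. All Nrf2 libraries were below all LacZ libraries for 7 members, as they were for 30.0% of the 11602 genes compared in this way, and above them for 1, as for 31.6%. *Kdr* with Nrf1, and *Tek* and *Vwf* with Nrf2, were the pairs in which libraries overlapped, and none of these was called.

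**Figure D2:**
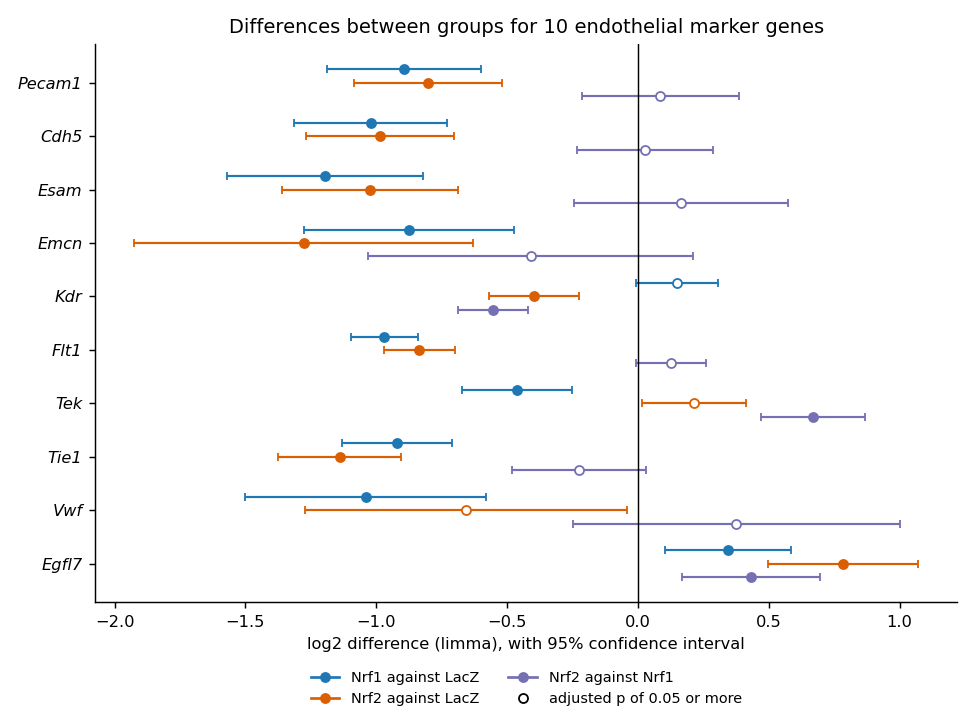
Log2 difference (limma) of each endothelial marker gene with its 95% confidence interval, for Nrf1 against LacZ, Nrf2 against LacZ and Nrf2 against Nrf1; filled points have an adjusted p under 0.05. Most values against LacZ lie near -1, *Egfl7* lies above 0 in all 3 comparisons, and only *Kdr*, *Tek* and *Egfl7* have filled points for Nrf2 against Nrf1.

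The direct comparison asked where the factors differed from each other. Between Nrf2 and Nrf1 cells 1 of the 10 members was called lower and 2 were called higher, where 29.8% of the 11504 genes tested were called lower and 28.9% higher, and the median log2 difference of the members was 0.11, against 0.00 for all genes tested. *Kdr* was lower in Nrf2 than in Nrf1 cells, with no overlap between the libraries and a log2 difference of -0.55 ± 0.06 (SE, 95% CI -0.69 to -0.42, adjusted p = 8.84e-07). *Tek* was higher in Nrf2 cells by 0.67 ± 0.09 (SE, 95% CI 0.47 to 0.87, adjusted p = 9.45e-06), also with no overlap, and it alone of the 3 passed a fold of 1.5, where 4.64% of all genes tested were lower and 11.3% higher past that fold. *Egfl7* was higher in Nrf2 cells by 0.43 ± 0.12 (SE, 95% CI 0.17 to 0.69, adjusted p = 0.00683), with libraries that overlapped slightly. Without the third Nrf2 library by depth *Egfl7* was no longer called (0.33, adjusted p = 0.052), and its adjusted p ran from 1.56e-04 to 0.052 over all alternatives. The libraries of Nrf1 and Nrf2 did not overlap for 1 member in each direction. Of the 11486 genes compared in this way, 31.9% had every Nrf2 library below every Nrf1 library and 31.7% had it above.

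The remaining 7 members were not called between Nrf2 and Nrf1, which does not show that they were equal. For *Cdh5* the log2 difference was 0.03 ± 0.12 (SE), with a 95% CI of -0.23 to 0.29, and for *Pecam1* it was 0.08 ± 0.14, with a 95% CI of -0.22 to 0.38, and the sign of either difference turned when single libraries were left out, with values of -0.04 to 0.15 for *Cdh5* and -0.04 to 0.17 for *Pecam1*. The interval was narrowest for *Flt1*, with 0.13 ± 0.06 and a 95% CI of -0.01 to 0.26. *Flt1* was called higher in Nrf2 cells when ratios were re-centred on the median gene (0.16, adjusted p = 0.0378) and without the second Nrf2 library by depth (0.17, adjusted p = 0.0454), with an adjusted p of 0.0378 to 0.367 over all alternatives. The widest intervals were those of the members with few reads or a large spread, -1.03 to 0.21 for *Emcn* (log2 difference -0.41 ± 0.29, and 0.02 without the second Nrf2 library by depth) and -0.25 to 1.00 for *Vwf* (0.38 ± 0.30). *Vwf* was called higher in Nrf2 cells without the second Nrf2 library by depth (0.77, adjusted p = 0.0171), whereas without the third by depth the difference was 0.0083 (adjusted p = 0.983), with an adjusted p of 0.0171 to 0.983 over all alternatives. *Esam* and *Tie1* had log2 differences of 0.16 ± 0.19 and -0.23 ± 0.12. Leaving out single libraries gave 0.09 (without the deepest Nrf1 library) to 0.30 (without the second Nrf1 library) for *Esam*, and -0.31 (without the third Nrf2 library) to -0.12 (without the second Nrf2 library) for *Tie1*.

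Because the receptors of each family differed in their calls, their read counts were also set against each other within each library, a description chosen after these values had been seen. The log2 ratio of *Kdr* to *Flt1* reads was -0.83, -1.21 and -0.88 in the LacZ libraries, 0.18, 0.05 and 0.21 in the Nrf1 libraries and -0.61, -0.39 and -0.61 in the Nrf2 libraries. The groups did not overlap, with the ratio highest in Nrf1 cells and lowest in LacZ cells. For *Tek* and *Tie1* the log2 ratio was 0.10, 0.40 and 0.37 in LacZ libraries, 0.84, 0.71 and 0.70 in Nrf1 libraries and 1.69, 1.68 and 1.58 in Nrf2 libraries, again without overlap and with the highest values in Nrf2 cells. No test was run on these ratios. The pairs were picked for their differing calls, so their separation adds no support to those calls. How often other pairs of genes separate in this way was not counted. The ratio of 2 genes in 1 library does not depend on the library's size factor, but its absolute value depends on the lengths of both transcripts and is read here between groups alone.

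**Figure D3:**
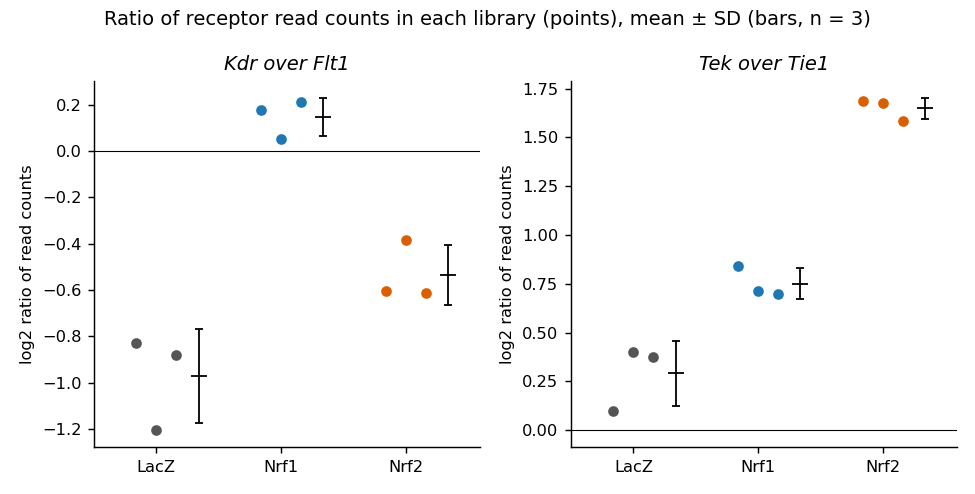
Log2 ratio of the read counts of *Kdr* to *Flt1* and of *Tek* to *Tie1* in each library (points), with the group mean ± SD (n = 3). The ratio of *Kdr* to *Flt1* averages -0.97 in LacZ, 0.15 in Nrf1 and -0.53 in Nrf2 cells, and that of *Tek* to *Tie1* averages 0.29, 0.75 and 1.65.

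The group means that the authors deposited can also be read without the counts of single libraries. In the authors' table for Nrf1 and LacZ the log2 ratio of the means was below 0 for 8 members and above 0 for 2, with a median of -0.91 and a range of -1.20 to 0.35. In the authors' table for Nrf2 and LacZ it was again below 0 for 8 members and above 0 for 2, with a median of -0.82 and a range of -1.19 to 0.81. The members on the positive side were *Kdr* and *Egfl7* in the first of these tables and *Tek* and *Egfl7* in the other. In the authors' table for Nrf1 and Nrf2 the ratio of Nrf2 to Nrf1 had a median of 0.11 and ran from -0.55 for *Kdr* to 0.67 for *Tek*. These means carry no spread, and each table was normalized separately. Taken through LacZ from the other 2 tables, the ratio of Nrf2 to Nrf1 had a median of 0.11.

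A wider list of 40 other genes used to mark endothelial cells was followed beside the 10 members. For this list and those below, the counts stand beside the shares of all genes tested. These were 32.5% lower and 34.3% higher with Nrf1, 26.0% and 28.6% with Nrf2, and 29.8% and 28.9% in Nrf2 against Nrf1 cells. The difference between a list and these shares was not tested. With Nrf1 22 of the 29 tested were called lower and 1, the fatty acid transporter gene *Cd36*, was called higher, with a median log2 difference of -0.85. With Nrf2 22 of 30 were called lower and 3 (*Cd36*, *Calcrl* and *Stab2*) higher, with a median of -0.80, and between Nrf2 and Nrf1 4 of 28 were called lower and 6 higher, with a median of -0.01. A gene that reached the mean of 10 in 1 group alone could be tested only because it was high there, so such a gene is no support for a direction. In the comparisons with LacZ these were *Apln*, *Sele* and *Sox18* (high in LacZ), *Sox7* (high in LacZ, against Nrf1) and *Stab2* (high in Nrf2), and between the factors *Apln*, *Sox7* and *Stab2*. Over the genes that reached it in both groups, 19 of 25 were called lower and 1 higher with Nrf1 (median -0.85), 19 of 26 lower and 2 higher with Nrf2 (median -0.71), and 4 of 25 lower and 5 higher between Nrf2 and Nrf1 (median -0.01). *Eng* encodes endoglin, a coreceptor that binds ligands of the TGF-beta family, and was at 2895, 2860 and 2926 in LacZ libraries, 1506, 1649 and 1496 in Nrf1 libraries and 1513, 1411 and 1557 in Nrf2 libraries, so that all libraries with a factor were below all LacZ libraries. The log2 difference of *Eng* was -0.90 ± 0.04 (adjusted p = 5.03e-11) with Nrf1 and -0.95 ± 0.04 (adjusted p = 2.71e-10) with Nrf2. *Aqp1*, a water channel and the gene of the list with the most reads, differed by -0.48 ± 0.04 (adjusted p = 2.27e-08) with Nrf1 and -0.68 ± 0.04 (adjusted p = 5.80e-09) with Nrf2, and *Esm1*, an endothelial proteoglycan, by -1.50 ± 0.08 (adjusted p = 1.56e-10) and -1.20 ± 0.08 (adjusted p = 1.30e-08). The sphingosine phosphate receptor *S1pr1* was not called with either factor, with 0.12 ± 0.08 (adjusted p = 0.182) and -0.04 ± 0.07 (adjusted p = 0.683), although without the deepest LacZ library it was called higher with Nrf1 (0.19, adjusted p = 0.0367, range over all alternatives 0.0367 to 0.782). Some widely used endothelial markers were close to absent, since *Robo4* had at most 1 read and *Cldn5* at most 5 reads in any library. These and the genes called higher were named after their values were seen. *Mmrn1*, *Mmrn2*, *Ecscr*, *Ptprb* and *Stab1* of this list were not analysed here.

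A list of the ligands and coreceptors of the same receptors, which also held the lymphatic VEGF receptor *Flt4*, fell in part. Of 10 tested, 8 were called lower and none higher with Nrf1 (median -0.48), 7 lower and 1 higher with Nrf2 (median -0.50), and 2 lower and 4 higher in Nrf2 against Nrf1 cells (median 0.16). Without *Flt4*, 7 of 9 were called lower and none higher with Nrf1 (median -0.57), 6 lower and 1 higher with Nrf2 (median -0.55), and 2 lower and 4 higher between the factors (median 0.23). *Vegfa*, the main ligand of *Kdr* and *Flt1* and made by cardiomyocytes among other cells, was at 3599, 3912 and 3747 in LacZ libraries, 2551, 2489 and 2554 in Nrf1 libraries and 2467, 2692 and 2430 in Nrf2 libraries. All libraries with a factor were below all LacZ libraries, with log2 differences of -0.57 ± 0.04 (adjusted p = 3.02e-09) with Nrf1 and -0.57 ± 0.05 (adjusted p = 1.42e-07) with Nrf2. *Nrp2*, a coreceptor for VEGF-C and semaphorins, had log2 differences of -1.35 ± 0.05 (adjusted p = 7.48e-12) with Nrf1 and -0.28 ± 0.05 (adjusted p = 2.14e-04) with Nrf2, and was higher in Nrf2 than in Nrf1 cells by 1.06 ± 0.05 (adjusted p = 6.22e-12). *Vegfc*, the ligand of lymphatic VEGF receptors, was called lower with Nrf2 (-0.55 ± 0.06, adjusted p = 3.72e-06) and not with Nrf1 (0.11 ± 0.06, adjusted p = 0.112), and its log2 difference between Nrf2 and Nrf1 cells was -0.66 ± 0.05 (adjusted p = 7.55e-09). With Nrf1 *Vegfc* was called higher when the shallowest LacZ library was left out (0.15, adjusted p = 0.049, range over all alternatives 0.049 to 0.437).

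A list of genes of activated endothelium held leukocyte adhesion molecules and regulators of clotting. Of 8 tested, 7 were called lower and none higher with Nrf1 (median -1.03), and 7 lower and 1 higher with Nrf2 (median -0.94), while in Nrf2 against Nrf1 cells 2 of 7 were called lower and 3 higher (median -0.02, or 0.24 without the deepest Nrf2 library). *Sele* reached the mean of 10 in LacZ cells alone, and without it 6 of 7 were called lower and none higher with Nrf1 (median -0.99) and 6 lower and 1 higher with Nrf2 (median -0.77). The gene called higher with Nrf2 was the leukocyte adhesion molecule *Vcam1* (0.57 ± 0.16, adjusted p = 0.00825), which was lower with Nrf1 (-0.99 ± 0.18, adjusted p = 1.40e-04) and differed between Nrf2 and Nrf1 cells by 1.55 ± 0.11 (adjusted p = 1.96e-09). The gene not called with Nrf1 was *F3*, which encodes tissue factor (0.11 ± 0.08, adjusted p = 0.227), and both were named after their values were seen. *Icam1*, a ligand for leukocyte integrins, differed from LacZ by -1.64 ± 0.08 (adjusted p = 5.77e-11) with Nrf1 and -1.69 ± 0.07 (adjusted p = 1.12e-10) with Nrf2, and *Edn1*, which encodes the vasoconstrictor endothelin, by -0.80 ± 0.08 (adjusted p = 1.55e-07) and -1.11 ± 0.08 (adjusted p = 2.76e-08). Arterial and venous Notch pathway genes were called lower for 6 of 8 and higher for 1 with Nrf1 (median -0.47), lower for 3 of 9 and higher for 1 with Nrf2 (median -0.18), and lower for 1 of 8 and higher for 5 in Nrf2 against Nrf1 cells (median 0.25). *Dll1* reached the mean of 10 in LacZ cells alone, and without it 5 of 7 were called lower and 1 higher with Nrf1 (median -0.44) and 3 of 8 lower and 1 higher with Nrf2 (median -0.18). Of this list, *Notch1* lost its call with Nrf1 when re-centred (0.11) or without the shallowest LacZ (0.15), deepest Nrf1 (0.15) or second Nrf1 library (0.12), with an adjusted p of 0.0122 to 0.134 over all alternatives. *Efnb2* lost its call with Nrf2 without the deepest LacZ (-0.11), deepest Nrf2 (-0.17) or second Nrf2 library (-0.17), with an adjusted p of 0.00298 to 0.104. Of the endocardial markers, 3 of 4 were called lower and 1 higher with Nrf1 (median -0.96), 3 lower and none higher with Nrf2 (median -0.46), and 1 lower and 2 higher in Nrf2 against Nrf1 cells (median 0.41). With Nrf2 *Nfatc1*, a transcription factor of the endocardium, lost its call without the shallowest LacZ (-0.32) or second Nrf2 library (-0.35), with an adjusted p of 0.00872 to 0.0636. *Hapln1* was called lower with Nrf2 only when re-centred (-0.41) or without the deepest Nrf2 library (-0.55), with an adjusted p of 0.0139 to 0.258. *Npr3*, an endocardial receptor for natriuretic peptides, rose with Nrf1 (0.33 ± 0.07, adjusted p = 5.03e-04) and fell with Nrf2 (-0.52 ± 0.07, adjusted p = 4.83e-05), a difference of -0.85 ± 0.07 (adjusted p = 8.11e-09) between the factors. The endocardial sum was 1806, 1798 and 1791 in LacZ libraries, 1030, 1007 and 1036 in Nrf1 libraries and 1061, 962 and 1158 in Nrf2 libraries, of which *Cdh11*, with the most reads over all 9 libraries, gave 64.8%, 36.7% and 56.8% with LacZ, Nrf1 and Nrf2. Without *Cdh11* the endocardial sum was 103% of the LacZ mean with Nrf1 and 72.4% with Nrf2, and *Cytl1* was under a mean of 10 in every group. Of that sum without *Cdh11*, *Npr3* had a mean level of 425 of 633 with LacZ, 534 of 649 with Nrf1 and 297 of 458 with Nrf2. With Nrf1 *Hapln1* (-1.36 ± 0.18, adjusted p = 6.70e-06) and *Nfatc1* (-0.56 ± 0.13, adjusted p = 0.00125) were called lower. Without the filter on low means the endocardial median was -0.56 with Nrf1 and 0.67 for Nrf2 against Nrf1. Across all lists, 3 genes stood in more than 1.

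Lymphatic endothelial markers were mixed, with 3 of 5 called lower and 2 higher with Nrf1 (median -0.20), 1 lower and 2 higher with Nrf2 (median -0.15), and 2 lower and 2 higher in Nrf2 against Nrf1 cells (median 0.09). The genes called higher with Nrf1 were *Pdpn* (0.85 ± 0.05, adjusted p = 6.49e-10) and *Prox1* (0.47 ± 0.15, adjusted p = 0.0107). Both were lower in Nrf2 than in Nrf1 cells, by -0.69 ± 0.05 (adjusted p = 7.46e-10) and -0.62 ± 0.12 (adjusted p = 2.69e-04). Several other calls of lymphatic markers were fragile. *Flt4*, the lymphatic VEGF receptor and the gene called lower with Nrf2, lost that call without any filter (adjusted p = 0.0544), in a single fit over all 9 libraries, and without the deepest or shallowest LacZ library or the deepest or second Nrf2 library, with log2 differences of -0.35 to -0.22 and an adjusted p of 0.0202 to 0.15 over all alternatives. With Nrf1 *Flt4* was not called without the shallowest LacZ library (-0.33) or the deepest Nrf1 library (-0.23), with an adjusted p of 0.00904 to 0.134 over all alternatives. *Reln*, which encodes a secreted matrix protein, was higher with Nrf2 (1.46 ± 0.06, adjusted p = 1.60e-10) and in Nrf2 against Nrf1 cells (1.65 ± 0.06, adjusted p = 1.22e-13). Its lower call with Nrf1 (-0.20 ± 0.08, adjusted p = 0.0347) was lost without the second LacZ library by depth (-0.15), the second Nrf1 library (-0.20) or the shallowest (-0.16), with an adjusted p of 0.0101 to 0.13. *Pdpn*, which encodes the membrane protein podoplanin, was not called with Nrf2 without the second LacZ library by depth (0.13), the deepest Nrf2 library (0.15) or the shallowest (0.14), with an adjusted p of 0.0103 to 0.0954. Without the filter on low means the lymphatic median was 0.03 with Nrf1 and -0.27 for Nrf2 against Nrf1, so that its sign turned in both. The lymphatic sum was 1206, 1145 and 1213 in LacZ libraries, 1655, 1628 and 1660 in Nrf1 libraries and 1749, 1674 and 1792 in Nrf2 libraries, of which *Pdpn*, with the most reads over all 9 libraries, gave 54.4%, 70.8% and 41.7% with LacZ, Nrf1 and Nrf2. Without *Pdpn* the sum was 88.8% of the LacZ mean with Nrf1 and 187% with Nrf2, and *Ccl21* was under a mean of 10 in every group. Of that sum without *Pdpn*, *Reln* had a mean level of 292 of 541 with LacZ, 254 of 481 with Nrf1 and 802 of 1013 with Nrf2. The high value with Nrf2 thus rests on *Reln*, and *Flt4*, *Prox1* and *Lyve1* were not called higher with Nrf2.

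Fibroblast and leukocyte markers, which mark other cells that a primary heart culture can hold, were lower with either factor as well. Fibroblast markers were called lower for 10 of 10 with Nrf1 (median -1.76) and 9 of 10 with Nrf2 (median -0.97), and 9 of 10 were higher and 1 lower in Nrf2 than in Nrf1 cells (median 0.90). Their summed level was 123618, 129726 and 124792 in LacZ libraries, 32678, 34107 and 31619 in Nrf1 libraries and 69645, 64437 and 67105 in Nrf2 libraries, of which *Col1a1*, with the most reads, gave 72.6% in LacZ cells, 73.3% in Nrf1 cells and 74.1% in Nrf2 cells. The fibroblast sum separated the Nrf1 from the Nrf2 libraries, which the sum of the endothelial markers did not. Leukocyte markers were called lower for 9 of 10 and higher for 1 with Nrf1 (median -1.44), lower for 9 of 10 with Nrf2 (median -1.16), and lower for 1 of 9 and higher for 2 between Nrf2 and Nrf1 (median 0.34, or 0.09 without the second Nrf2 library by depth). In the comparisons with LacZ, *C1qb* and *C1qc* reached the mean of 10 in LacZ cells alone, and between the factors *C1qb* did so in Nrf2 cells alone. Over the genes that reached it in both groups, 7 of 8 were called lower and 1 higher with Nrf1 (median -1.44), 7 of 8 lower and none higher with Nrf2 (median -1.16), and 1 of 8 lower and 2 higher between the factors (median 0.25). All 10 leukocyte markers summed to 1220, 1790 and 1319 in LacZ libraries, 773, 812 and 829 in Nrf1 libraries and 778, 882 and 886 in Nrf2 libraries, with *Csf1r*, the receptor of a macrophage growth factor and the gene with the most reads over all 9 libraries, at 19.5% of the sum in LacZ cells, 47.3% in Nrf1 cells and 35.1% in Nrf2 cells. The whole leukocyte sum was 55.7% of the LacZ mean with Nrf1 and 58.8% with Nrf2, and without *Csf1r* it was 36.5% and 47.4%. *Csf1r* was itself the leukocyte marker called higher with Nrf1, with a log2 difference of 0.45 ± 0.12 (adjusted p = 0.00404). The second LacZ library by depth had the highest leukocyte sum, and among the LacZ libraries it was the highest for 4 endothelial markers and the lowest for 4. No fibroblast or leukocyte marker had a mean level under 10 in LacZ cells, while the complement genes *C1qb* and *C1qc* were under 10 with either factor on the scale of all 9 libraries. Genes with a mean under 10 are named for their low values.

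Pericyte and smooth muscle markers were divided, with 6 of 10 called lower and 3 higher with Nrf1 (median -0.66), 2 lower and 4 higher with Nrf2 (median -0.13), and 2 of 9 lower and 6 higher in Nrf2 against Nrf1 cells (median 0.64). *Kcnj8* reached the mean of 10 in LacZ cells alone, and *Rgs5* in LacZ and Nrf2 and not in Nrf1 cells. Over the genes that reached it in both groups, 5 of 8 were called lower and 3 higher with Nrf1 (median -0.24), 2 of 9 lower and 4 higher with Nrf2 (median -0.06), and 2 of 8 lower and 5 higher between the factors (median 0.57). The sum of all 10 was 43693, 37579 and 40537 in LacZ libraries, 63087, 62909 and 62278 in Nrf1 libraries and 50916, 51870 and 54247 in Nrf2 libraries, and 43.1% of it in LacZ, 49.9% in Nrf1 and 46.9% in Nrf2 cells came from *Acta2*, which immature cardiomyocytes express as well. Without the second LacZ library by depth the median of these markers moved to -0.22 with Nrf1 and to 0.28 with Nrf2, and without the shallowest Nrf1 library it was -0.42 with Nrf1. With Nrf1 *Cnn1* lost its call when re-centred (0.06) or without the second LacZ (0.09), shallowest LacZ (0.10) or shallowest Nrf1 library (0.07), with an adjusted p of 0.0119 to 0.267, and *Cspg4* without the deepest LacZ (-0.08), shallowest LacZ (-0.12), deepest Nrf1 (-0.11) or shallowest Nrf1 library (-0.11), with an adjusted p of 8.47e-04 to 0.118. With Nrf2 *Cspg4* was called lower only without the second LacZ library by depth (-0.11), with an adjusted p of 0.0267 to 0.77. Platelets also carry *Vwf*, *Pecam1* and *Esam*, and 2 of 8 platelet and megakaryocyte markers could be tested, while *Gp9* and *Treml1* had mean levels under 10 in every group. *Pf4* was called lower with either factor, with log2 differences of -1.35 ± 0.17 (adjusted p = 3.46e-06) with Nrf1 and -1.42 ± 0.18 (adjusted p = 1.11e-05) with Nrf2, while *Gp1ba*, which did not reach the mean of 10 in Nrf1 cells in the comparison of Nrf1 and LacZ, was not called, and neither was called between Nrf2 and Nrf1. The medians of these 2 genes were -0.77 with Nrf1, -0.63 with Nrf2 and 0.12 for Nrf2 against Nrf1. The median with Nrf1 was -1.15 without the second LacZ library by depth and -0.98 without the deepest Nrf1 library, and without the latter the median of Nrf2 against Nrf1 was 0.34. Without the filter on low means the platelet medians were -0.13 with Nrf1, -0.10 with Nrf2 and -0.18 for Nrf2 against Nrf1, the last with its sign turned. The platelet sum was 159, 235 and 158 in LacZ libraries, 95.6, 78.0 and 64.0 in Nrf1 libraries and 74.6, 91.0 and 65.3 in Nrf2 libraries, with *Pf4*, a chemokine that macrophages can also make, at 92.9% in LacZ, 83.7% in Nrf1 and 82.2% in Nrf2 cells. Cardiomyocyte markers, which mark the cells the culture was made for, were called lower for 5 of 10 and higher for 3 with Nrf1 (median -0.11), lower for 2 and higher for 6 with Nrf2 (median 0.22), and lower for 3 and higher for 6 in Nrf2 against Nrf1 cells (median 0.34). Of all genes tested, 32.5% were called lower and 34.3% higher with Nrf1, and 26.0% and 28.6% with Nrf2. Cardiomyocyte markers were further compared as a sum. They summed to 194360, 167884 and 181903 in LacZ libraries, 173464, 173749 and 175515 in Nrf1 libraries and 192012, 195294 and 192702 in Nrf2 libraries, with *Actc1*, the gene with the most reads over all 9 libraries, at 20.5% in LacZ cells, where *Nppa* had more reads, 33.0% in Nrf1 cells and 23.3% in Nrf2 cells. The whole cardiomyocyte sum was 96.1% of the LacZ mean with Nrf1 and 107% with Nrf2, and without *Actc1* it was 80.9% and 103%. The part of these other cells in the endothelial result was not tested. Of the genes in these lists, *Jag2*, *Ephb4*, *Adgrg6*, *Itga2b*, *Gp1bb*, *Ppbp* and *Gp6* were not analysed here.

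**Figure D4:**
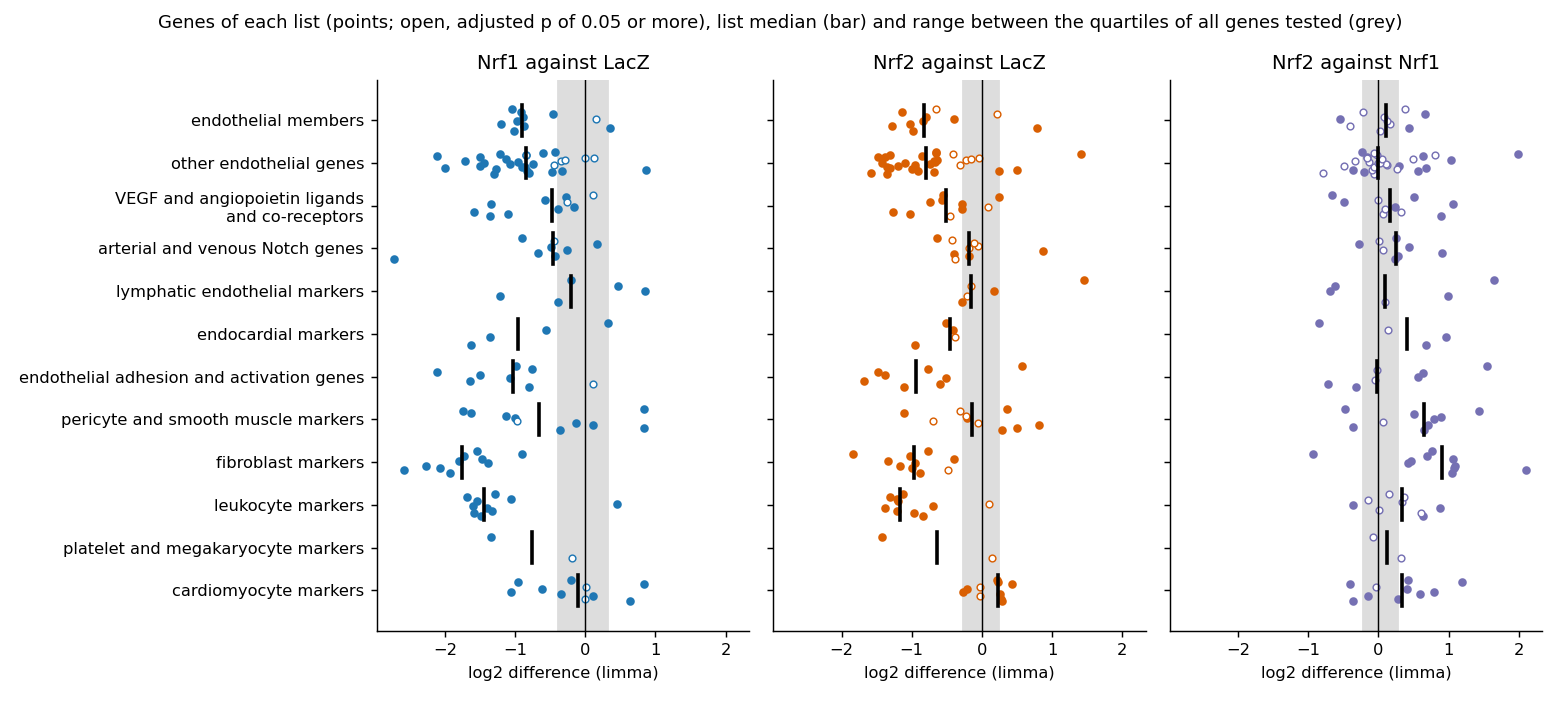
Log2 difference (limma) of each tested gene of each list (points; open where the adjusted p was 0.05 or more), with the list's median as a bar and the range between the quartiles of all genes tested in grey, for the 3 comparisons. The medians of the endothelial markers, -0.91 with Nrf1 and -0.82 with Nrf2, lie below the grey range in the comparisons with LacZ, as do those of the fibroblast and leukocyte markers.

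**Figure D5:**
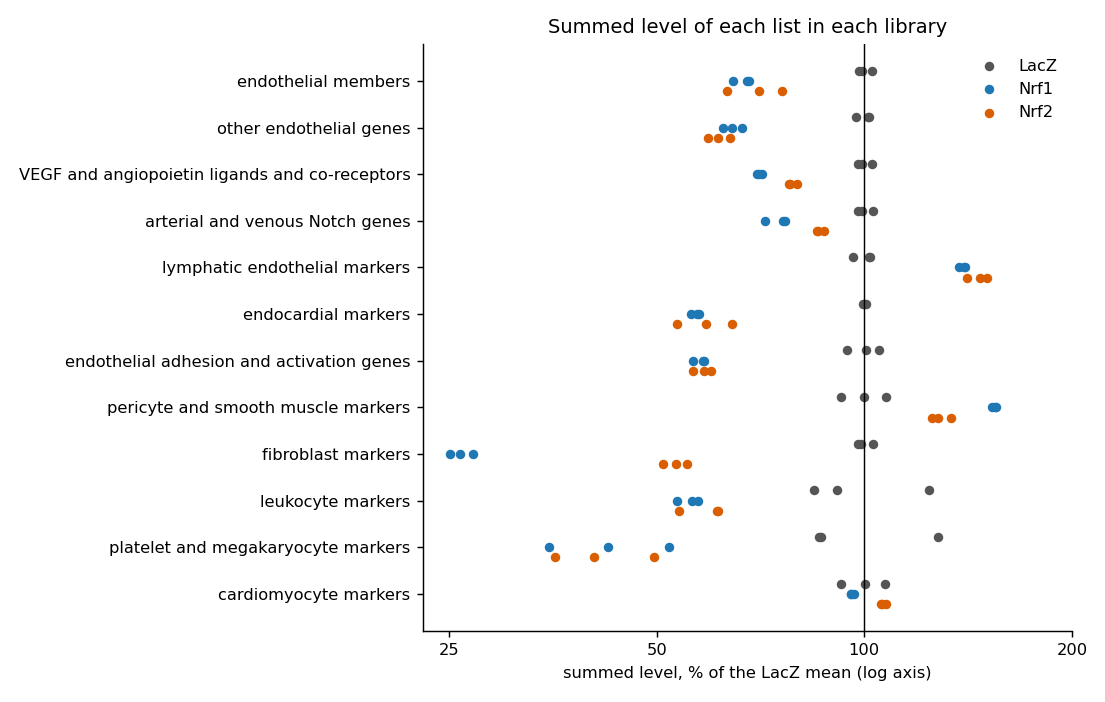
Summed level of each list in each library, as a percentage of the list's LacZ mean (log axis), with 1 point per library. The endothelial markers sit at 66.8% with Nrf1 and 69.9% with Nrf2 on average, the fibroblast markers at 26.0% and 53.2% and the cardiomyocyte markers at 96.1% and 107%.

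The genes most like the members outside these lists were taken by the distance between their pair of log2 ratios of the authors' group means (Nrf1 over LacZ and Nrf2 over LacZ) and the members' median pair of -0.91 and -0.82, among the 7754 genes whose group means all reached 100. The nearest was *Csf1*, a growth factor for macrophages, with -0.91 and -0.83. It was followed by the uncharacterized gene *LOC100911177* (-0.91 and -0.78), the secreted glycoprotein gene *Fstl1* (-0.94 and -0.80), *Sirpa*, a receptor of myeloid cells (-0.92 and -0.78), and *Mrc1*, the mannose receptor of macrophages (-0.95 and -0.81). This likeness rests on 2 ratios that share the LacZ libraries and is a description.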

How the data were processed

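RNA of NRVMs was measured as stranded mRNA libraries, 3 per group. Per the submitters' processing notes and the study's methods, reads were checked with FastQC 0.11.4, aligned to Rnor 6.0 with HISAT2 2.0.4, freed of duplicates with SAMtools 0.1.18, counted per gene with featureCounts 1.6.0 and compared with edgeR 3.20.5 by the authors. The signal values deposited by the authors are group means of read counts divided by library size factors, made separately for each pair of groups. Other columns hold the fold change, p-value and adjusted p of the authors' comparison and were not used. No column held a single sample. The whole read counts of single libraries were solved from each mean, as a sum of 3 whole counts times 3 fixed steps that recur at the lowest means, within the deposited rounding. A gene listed for a group in 2 tables had to satisfy both, as all members did, and one listed in 1 table was solved from it alone. This gave counts for 15095 of 15096 genes with LacZ, 15115 of 15122 with Nrf1 and 15112 of 15122 with Nrf2, of which 14656, 14579 and 14746 were in 2 tables. Symbols written as dates, 26 in each table with LacZ, were left out. Levels for display were scaled by median-of-ratios size factors over all 9 libraries.

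Within each pair of groups, log2(count divided by the authors' size factor + 0.5) was fitted with limma 3.58.1 with a trend, over genes that reached a mean of 10 in either group, with Benjamini-Hochberg adjustment over all of them, a threshold of 0.05 and a fold of 1.5 given beside it. The steps were tested on simulated data. Alternatives were re-centring on the median of genes that reached a mean of 100, no filter, a pseudocount of 2, a single fit over all 9 libraries, the fold of 1.5 and leaving out each library in turn, and for the group means a pseudocount of 1, scaling to their sum and ratios taken through LacZ. The members and the other lists were chosen with earlier results of these data known. The rule for named genes took the members, the 4 genes of each other list with the highest means in the table of Nrf1 and LacZ, the 5 nearest genes and *Nfe2l2*. Other genes, among them those called against their list's direction or with means under 10, were named after their values were seen. R 4.3.3, Python 3.11.15, numpy 2.4.6, pandas 2.3.3 and matplotlib 3.10.9 were used.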

Additional observations from a re-analysis of the deposited data

Results flagged for a closer look

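For 3 of the 10 endothelial markers the direct test between the groups with either factor found a difference (limma, adjusted p under 0.05), 1 lower and 2 higher, where 29.8% of all genes tested were called lower and 28.9% higher. The difference between the share of markers called and that of all genes was not tested. Without the second Nrf2 library by depth *Flt1* (0.17, adjusted p = 0.0454) and *Vwf* (0.77, adjusted p = 0.0171) were called higher as well. *Kdr* was lower in Nrf2 cells, at 267, 297 and 289 against 428, 404 and 417 in Nrf1 cells, with a log2 difference of -0.55 ± 0.06 (SE). *Tek* was higher in Nrf2 cells, at 333, 274 and 333 against 214, 173 and 202 in Nrf1 cells, with a log2 difference of 0.67 ± 0.09. *Egfl7* was higher in Nrf2 cells, at 186, 134 and 195 against 134, 116 and 126 in Nrf1 cells, with a log2 difference of 0.43 ± 0.12, and it was no longer called without the third Nrf2 library by depth (0.33, adjusted p = 0.052, range over all alternatives 1.56e-04 to 0.052).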

How the results depend on the processing

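Over the members and all alternatives to the limma fits but the fold of 1.5, 285 of 300 values kept their direction and their side of the threshold, 7 were called only under the alternative, 2 lost their call and 6 changed sign. The alternatives for the group means are not in this count. No paired analysis was possible because the solved libraries carry no replicate numbers. Requiring a fold of 1.5 left 1947 genes lower and 1300 higher with Nrf1, with 0 members higher; 1121 lower and 1074 higher with Nrf2; and 534 lower and 1299 higher in Nrf2 against Nrf1 cells, with 0 members lower and 1 higher, since this rule is stricter. It removed the calls of *Tek* and *Egfl7* with Nrf1, of *Kdr* with Nrf2, and of *Kdr* and *Egfl7* in Nrf2 against Nrf1 cells. Leaving out single libraries gave 0 to 2 members called higher with Nrf1, 1 to 2 with Nrf2 and 1 to 4 in Nrf2 against Nrf1 cells. In the main fits 34.3%, 28.6% and 28.9% of all genes tested were called higher, and these shares were not taken for the reduced fits. No member called lower in the main fits lost that call, and *Vwf* was called lower in addition with Nrf2, as given above. Differences that changed sign when a library was left out were not called either way. In Nrf2 against Nrf1 cells these were *Pecam1* (-0.035 and -0.014), *Cdh5* (-0.016, -0.044 and -0.026) and *Emcn* (0.022), which ran from -0.04 to 0.17, -0.04 to 0.15 and -0.66 to 0.02 respectively. With Nrf1 they were *Actn2* (0.014 and 0.0011) and *Gp1ba* (0.054), and with Nrf2 *Csf1r* (-0.058), *Gp1ba* (-0.156) and *S1pr1* (0.032). The cause was not tested. Re-centring took out shifts of 0.05 (Nrf1 against LacZ), 0.02 (Nrf2 against LacZ) and -0.03 (Nrf2 against Nrf1). The fewest reads of any member were those of *Emcn*, with 14 in 1 Nrf2 library. In Nrf2 cells its coefficient of variation was 43.9%, where counting error alone gives 19.0%.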
